A study of Rattus norvegicus with 19 samples.

Results

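Transcriptionally active putative enhancers (TAPEs) are stretches of open chromatin outside genes that hold RNA-seq reads from both strands. The TAPEs described here lie just past the end of a gene. They were taken from the deposited TAPE and gene table as those whose centre is at least 10 kb from every listed start site, lies outside a gene, and is within 10 kb of that gene's end opposite its start site. The rule used positions only, and 1402 of 27538 TAPEs met it. They follow 1250 genes, here called end genes, on 22 chromosomes. The centres lay 1759 to 10000 bp past the end, with a median of 5983 bp, and 519 were within 5 kb. Of the 1402, 130 lay past the ends of 2 genes, and these were assigned to the nearer end. No end gene had more than 3 TAPEs past its end, and Grasp was among those with 3.

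Total RNA was sequenced from primary neuron cultures of rat cortex, hippocampus and striatum, made at embryonic day 18 and kept for 11 days in vitro. Cultures received vehicle or potassium chloride (KCl), which depolarizes neurons, for 1 h. The 19 libraries made 6 groups of region and treatment, with 4 libraries of striatum vehicle and 3 of every other group. No genotype, allele or other agent is given, and the study calls the libraries of a group biological replicates. Neither the labels nor the methods say whether each came from its own culture preparation, so p-values measure the spread between these libraries. KCl was used at 25 mM according to the samples' treatment labels, while the text on the series gives 10 mM. The labels of cortex vehicle replicate 3 conflict: the title, used here, names cortex, and the tissue entry names striatum. Its median standardised level of cortical neuron genes was 0.705 SD and of striatal neuron genes -0.717 SD, against -0.961 to -0.897 SD and 1.17 to 1.37 SD in the striatum libraries.

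RNA polymerase II does not stop where a gene's transcript is cut and polyadenylated. It goes on into the flanking DNA until the remaining RNA is degraded and the enzyme is released, so RNA is found past many gene ends. Under several stresses this release is delayed and transcripts extend far past the gene, which is called read-through. Enhancers are also transcribed, usually in both directions, into enhancer RNA (eRNA). RNA at a TAPE just past a gene end could therefore come from either source. The study kept only regions over 1 kb from annotated genes and outside continuously transcribed stretches, with reads on both strands, and such filters act against long one-stranded RNA. The deposited levels add both strands, so the strand of the RNA was not tested.

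TAPEs just past a gene end carried more RNA than other TAPEs far from start sites. Levels are in CPKM, the authors' read counts scaled to TAPE length and to the depth of the library. The median over TAPEs of the mean CPKM was 0.0148 past a gene end, 0.00663 in the other 23999 TAPEs at least 10 kb from start sites, and 0.0112 in the 2137 TAPEs closer to a start site. In each of the 19 libraries the mean CPKM past gene ends was above that of the other far TAPEs, by 2.46 to 3.16 times. A mean CPKM of at least 0.05, the level set for testing, was reached by 289 of the 1402 TAPEs past gene ends (20.6%), by 5.16% of other far TAPEs and by 16% of those closer to a start site. The median TAPE past a gene end held 30 reads over all libraries, and 507 held under 20. The 289 tested TAPEs held 72.7% of the summed CPKM.

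Level fell with distance from the gene end. The median CPKM was 0.0262 for the 82 TAPEs up to 2.5 kb past the end, 0.016 for 437 TAPEs from 2.5 to 5 kb, 0.0142 for 429 from 5 to 7.5 kb and 0.0132 for 454 from 7.5 to 10 kb. Farther out, the median was 0.00978 at 10 to 20 kb, 0.00795 at 20 to 50 kb and 0.00661 at 50 to 100 kb past the nearest end. TAPEs at the same distances before a gene start, without those up to 10 kb past an end, had medians of 0.00788, 0.00691 and 0.00672. A TAPE farther past one gene can also lie before another, so these sets can share TAPEs. At 10 to 20 kb a higher level was thus seen past the end than before the start, and at 50 to 100 kb the medians were close. No test was run on these levels, since TAPEs are not replicates. The share of TAPEs that reached the testing level followed the same order, from 32.9% nearest the end to 15% at 7.5 to 10 kb, 10.1% at 10 to 20 kb and 5.54% at 50 to 100 kb.

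**Figure D1:**
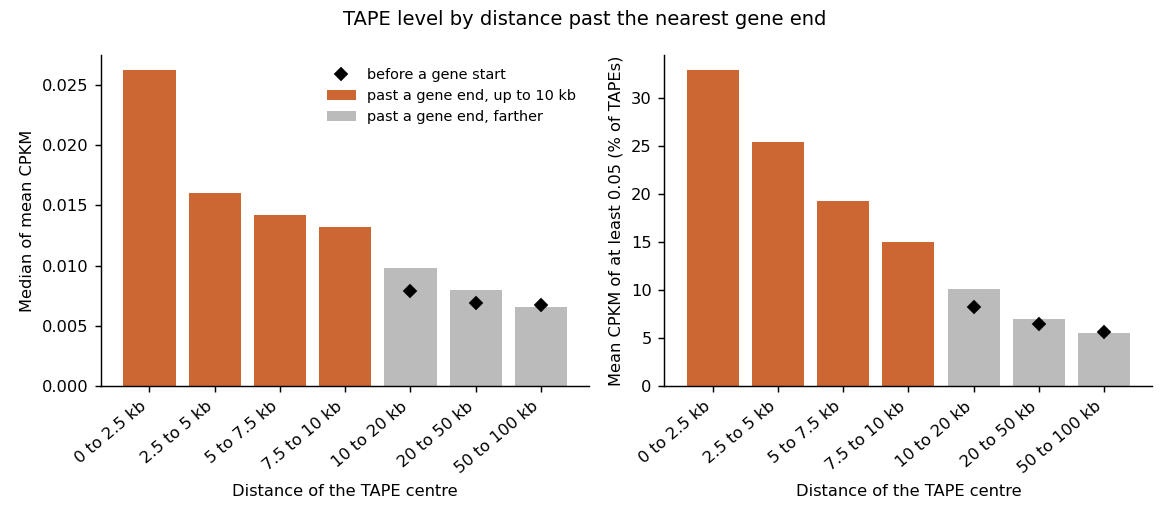
Median over TAPEs of mean CPKM (left) and percent of TAPEs averaging 0.05 CPKM or more (right), by distance of the TAPE centre in kb. Bars are TAPEs past the nearest gene end, coloured up to 10 kb. Diamonds are TAPEs before the nearest gene start, without those of the coloured bars, and can share TAPEs with the grey bars. The bars fall from 0.0262 to 0.00661 CPKM and from 32.9% to 5.54%.

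TAPEs lying between gene ends that face each other had more RNA still. All 130 TAPEs within 10 kb past 2 gene ends lay between genes that run toward each other. They had a median CPKM of 0.0474 (quartiles 0.0132 and 0.156), and 63 of them were tested (48.5%). The 1272 past a single end had a median of 0.0141 (quartiles 0.00624 and 0.0347), and 226 were tested (17.8%). The former also lay closer to the assigned end, with a median of 4500 bp against 6220 bp.

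The highest mean CPKM, 0.666, was at the TAPE 2936 bp past Tnip2, an inhibitor of NF-kB signalling (chr14:81506761-81508483, 1275 reads), which also lies 8785 bp past Fam193a. The TAPE 4671 bp past Patz1, a zinc finger transcription factor, had 0.609 CPKM (chr14:83531970-83535168). The TAPE past Fez1 had 0.577 CPKM, that past Pappa1 0.528 CPKM, and that past Ppp2r2d, a regulatory subunit of the phosphatase PP2A, 0.506 CPKM (chr1:211242082-211243608). The TAPE past Ppp2r2d also lies 5253 bp past Bnip3. These 5 TAPEs are the highest, all lay under 5 kb past the assigned end, and together they held 4.86% of the summed CPKM. Positions are on the Rn6 rat assembly.

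At the distance limits, the TAPEs just inside 10 kb past the end followed Wnt7a (9996 bp, 0.175 CPKM, r with the gene 0.759) and Fam72a (10000 bp, 0.0231 CPKM, r 0.018). Just outside were TAPEs past Ighmbp2 (10014 bp, 0.00927 CPKM, r 0.215) and Slc16a10 (10021 bp, 0.127 CPKM, r 0.609). At the 10 kb limit to any start site, those just inside followed Rubcn (10000 bp, 0.0111 CPKM, r 0.529) and Cyp2d4 (10019 bp, 0.00691 CPKM, r -0.127). Those just outside followed Nmur1 (9966 bp, 0.108 CPKM, r 0.683) and Arc (9979 bp, 0.00691 CPKM, r -0.218).

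To ask whether RNA past gene ends changed with depolarization, the summed CPKM of the 1402 TAPEs was compared between KCl and vehicle. It fell. In cortex the sums were 60, 56.2 and 69.5 with vehicle and 56.6, 54.3 and 55.4 with KCl, and the groups overlapped (fold 0.899, two-sided exact permutation p = 0.2). In hippocampus the sums were 56.6, 63.7 and 60.5 with vehicle and 53.5, 47.8 and 49.4 with KCl, with no overlap (fold 0.833, exact permutation p = 0.1, the smallest that 3 against 3 allows). In striatum they were 67.2, 68.3, 68.5 and 74 with vehicle and 55.9, 55.1 and 56.4 with KCl, again with no overlap (fold 0.804, exact permutation p = 0.0286, the smallest possible). Over the 3 regions the mean log2 ratio was -0.24, a fold of 0.845, with an exact permutation p of 0.000143 from labels permuted within regions. In bulk cultures, fewer cells of a type and less RNA per cell cannot be told apart.

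Other TAPEs also fell relative to library depth, so the sums were set against them. The summed CPKM of other far TAPEs changed by 0.906 times over regions and that of TAPEs close to a start site by 0.853 times. As a percent of the sum over other far TAPEs, TAPEs past gene ends made 15.5 ± 0.479% in cortex vehicle and 15.2 ± 0.533% in cortex KCl (SD, n = 3 each; exact permutation p = 0.4). The values were 15.6 ± 0.296% and 14.5 ± 0.0787% in hippocampus (n = 3 each; exact permutation p = 0.1) and 17.6 ± 0.649% (n = 4) and 15.7 ± 0.521% (n = 3) in striatum (exact permutation p = 0.0286). Over regions this ratio fell by a log2 value of -0.10 (fold 0.932, exact permutation p = 0.000643). Set against TAPEs close to a start site, in a comparison chosen after seeing the data, the percent was 81.3 ± 1.72 with vehicle (SD, n = 10) and 80.4 ± 2.05 with KCl (n = 9), with a log2 ratio of -0.02 (exact permutation p = 0.344). The fall was thus larger past gene ends than at other far TAPEs, and a difference from TAPEs near start sites was not detectable.

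**Figure D2:**
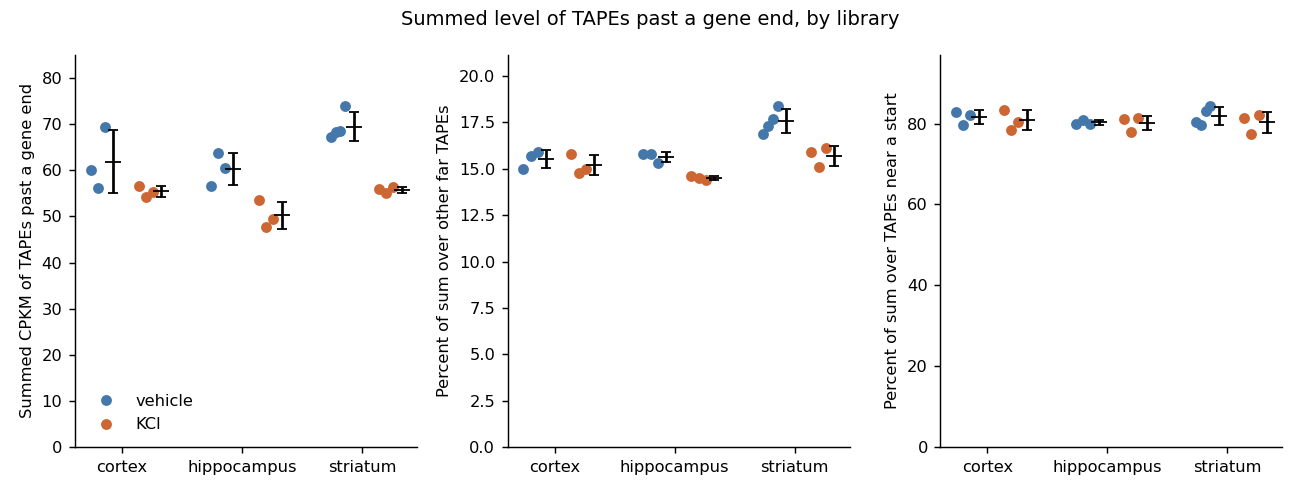
Summed CPKM of TAPEs past a gene end in each library (left), and the same as percent of the sum over other far TAPEs (middle) and over TAPEs close to a start site (right). Points are libraries, black marks the group mean ± SD; KCl libraries lie below vehicle libraries in the left panel in hippocampus and striatum (47.8 to 56.4 against 56.6 to 74), and overlap with them in the right panel.

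The sums were also split by distance past the gene end. The sum over TAPEs from 5 to 10 kb past the end was 104 ± 5.94% of the sum over those within 5 kb with vehicle (SD, n = 10) and 105 ± 5.59% with KCl (SD, n = 9). The log2 ratio over regions was 0.02 (exact permutation p = 0.508, also chosen after seeing the data). Both sums fell over regions, by folds of 0.84 within 5 kb (exact permutation p = 7.14e-05, the smallest the design can give) and 0.849 beyond it (exact permutation p = 0.000286). Read-through itself was not tested. The study's filters left out continuously transcribed stretches, and RNA farther than 10 kb past an end lies outside these sums.

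Single TAPEs were tested with limma on log2(CPKM + 0.05), with p-values adjusted by Benjamini-Hochberg over all 1870 TAPEs tested. Changes are on that log2 scale, which understates those of low TAPEs. In cortex 1 of the 289 TAPEs past gene ends passed, higher after KCl, where 0.321% of all tested TAPEs did. Before adjustment, 34 had a p under 0.05 (11.8%, beside 10.2% of the other tested TAPEs), of which 24 were lower after KCl (8.3%, beside 6.2%). In hippocampus 0 passed in limma and 0 by limma voom, where 0.0535% of all tested TAPEs did in limma. Before adjustment, 35 had a p under 0.05 (12.1%, beside 13.5%), of which 31 were lower (10.7%, beside 10.1%). In striatum 1 passed, lower after KCl, where 1.23% of all tested TAPEs did. Before adjustment, 54 had a p under 0.05 (18.7%, beside 14.4%), of which 50 were lower (17.3%, beside 10.8%). The shares past adjustment lie near or below the background.

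With the 3 regions in 1 fit, 20 TAPEs past gene ends passed (6.92%), beside 6.84% of all tested TAPEs. Of these, 18 were lower after KCl (6.23%, beside 5.19% of all tested) and 2 were higher (0.692%, beside 1.66%). The median log2 change was -0.19 past gene ends and -0.13 over all tested TAPEs. Subtracting the median log2 value of each library (centring) raised changes over regions by 0.13 and gave 12 calls, of which 4 were higher. Of these 12, 10 were among the 20 before centring, comprising 8 of the 18 lower and both higher ones, and 2 were added. Without cortex vehicle replicate 3, the library with conflicting labels, 12 passed and all were lower. For these alternative fits the share over all tested TAPEs is not given. The fall was the same in sign in all 3 regions for 17 of the 18 TAPEs that were lower. They were called by a fit that pooled these regions, so this agreement is partly built in and is no separate support. Of the 18, 9 kept their call without each single library.

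The smallest adjusted p over regions was at the TAPE 2958 bp past Fez1 (chr8:39351786-39354670, 1845 reads), a gene for a kinesin adaptor of axon growth. Its CPKM was 0.673, 0.703 and 0.788 with vehicle and 0.515, 0.612 and 0.517 with KCl in cortex. In hippocampus it was 0.46, 0.573 and 0.452 with vehicle and 0.261, 0.324 and 0.346 with KCl. In striatum it was 0.738, 0.845, 0.742 and 0.856 with vehicle and 0.438, 0.543 and 0.585 with KCl. Vehicle and KCl libraries did not overlap in any of the regions. Over regions it fell by 0.51 on the log2 scale (SE 0.10, limma adjusted p = 0.00154). The centred change was -0.38 (limma adjusted p = 0.019). Fez1 itself was not called (standardised difference 0.191 SD, exact permutation adjusted p = 0.551), and its r with the TAPE was 0.0251. The same TAPE lies 7990 bp past Pknox2, with which r was 0.71.

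The TAPE 5841 bp past Dclk1, a microtubule-associated kinase of neurons, was the one called in striatum (chr2:144941790-144943747, 432 reads). Striatum CPKM was 0.36, 0.401, 0.449 and 0.45 with vehicle and 0.231, 0.151 and 0.157 with KCl, with no overlap. The log2 change there was -1.03 (SE 0.20, limma adjusted p = 0.0223; -0.89 after centring). That call was lost in 6 of the 7 fits without 1 striatum library, all but the one without KCl replicate 1, with a limma adjusted p of up to 0.118. Over regions it fell by 0.91 on the log2 scale (SE 0.20, limma adjusted p = 0.00367), and no single library decided it. Vehicle and KCl libraries did not overlap in hippocampus but did in cortex. Cortex CPKM was 0.164, 0.113 and 0.159 with vehicle and 0, 0.189 and 0.0523 with KCl. Dclk1 itself moved the other way, with a standardised difference of 0.936 SD (exact permutation adjusted p = 0.00978).

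The TAPE 6819 bp past Gpr19, an orphan G protein-coupled receptor, was the one called in cortex (chr4:168632041-168634201, 666 reads). Cortex CPKM was 0.111, 0.191 and 0.151 with vehicle and 0.588, 0.498 and 0.697 with KCl, with no overlap. The rise was 1.69 on the log2 scale (SE 0.25, limma adjusted p = 0.00194), and the call held without each cortex library (limma adjusted p up to 0.0416). Hippocampus means were 0.229 ± 0.102 and 0.234 ± 0.0232 CPKM (SD, n = 3 each) and striatum means 0.256 ± 0.0943 (n = 4) and 0.223 ± 0.0178 CPKM (n = 3). The test of whether this change differed by region did not pass (limma adjusted p = 0.0748). Gpr19 was called higher over regions (1.77 SD, exact permutation adjusted p = 0.0018) and it followed the TAPE with an r of 0.911 among cortex libraries, 0.0396 among hippocampus and -0.178 among striatum libraries. Over all libraries Gpr19 ranked 5 of 18 genes by r (0.636), after Dusp16 (0.803).

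Of the 2 TAPEs that were higher over regions, 1 lay 2601 bp past Grasp, a scaffold of metabotropic glutamate receptors (chr7:142879678-142882218, 645 reads). Its CPKM was 0.0947, 0.114 and 0.0701 with vehicle and 0.339, 0.318 and 0.144 with KCl in cortex, and 0.229, 0.0793, 0.149 and 0.272 with vehicle and 0.505, 0.457 and 0.385 with KCl in striatum. In hippocampus it was 0.181, 0.332 and 0.242 with vehicle and 0.193, 0.153 and 0.249 with KCl, and there the groups overlapped. The log2 change over regions was 0.69 (SE 0.21, limma adjusted p = 0.0382; 0.82 after centring). The call was lost in 9 of 19 fits without a library, with a limma adjusted p of up to 0.0803. Grasp was called higher (1.31 SD, exact permutation adjusted p = 0.00527) and had the highest r of the 52 paired genes, 0.874, ahead of Nr4a1, an activity-induced nuclear receptor whose start is 24810 bp away (0.743). Another tested TAPE, 7240 bp past Grasp, had a log2 change of 0.57 over regions and was not called.

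The other TAPE that was higher lay 9309 bp past Nt5m, a mitochondrial nucleotidase, and is named after its values were seen (chr10:46251424-46253349). Its log2 change was 0.49 (SE 0.14, limma adjusted p = 0.0318), lost in 8 of 19 fits without a library. Nt5m was called lower (-0.942 SD, exact permutation adjusted p = 0.00863).

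**Figure D3:**
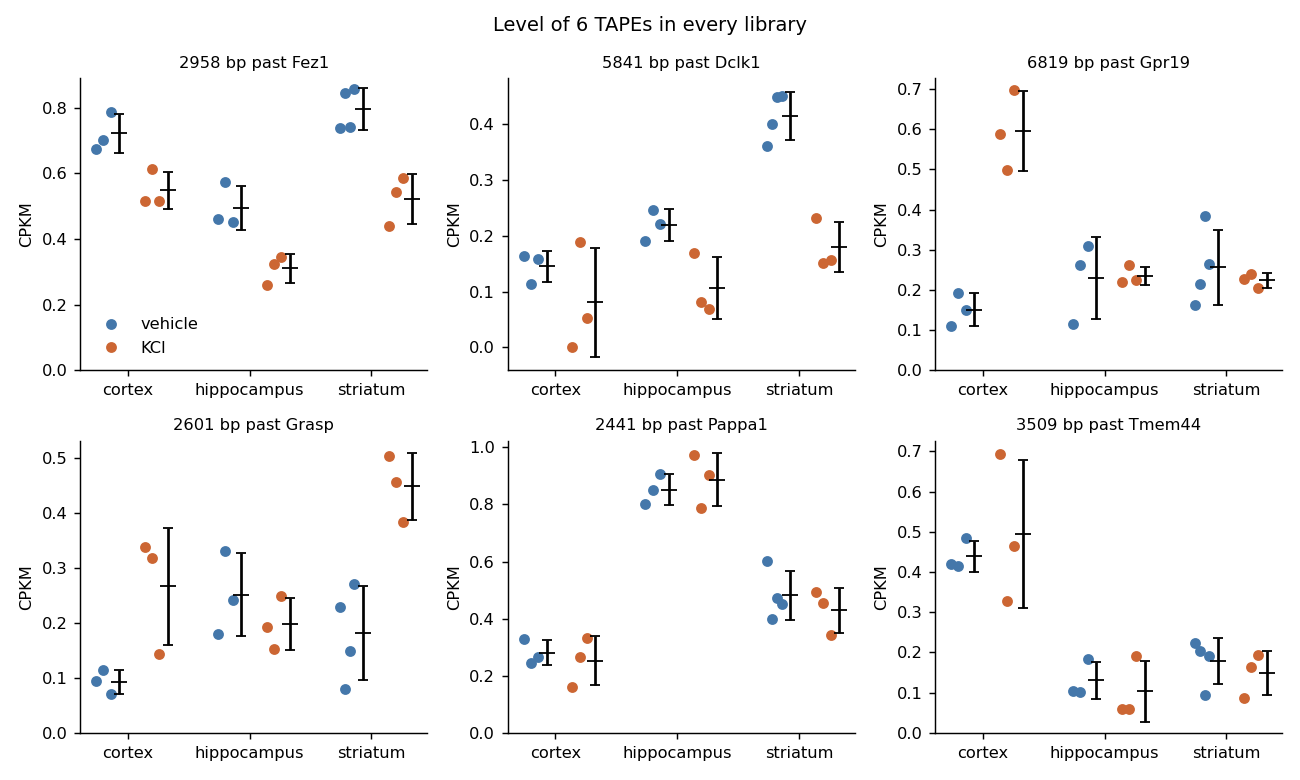
CPKM of 6 TAPEs in every library, with vehicle and KCl side by side in each region. Points are libraries and black marks the group mean ± SD; the TAPE past Fez1 is lower with KCl in each region, that past Gpr19 rises to 0.498 to 0.697 in cortex KCl, and those past Pappa1 and Tmem44 differ by region.

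The remaining TAPEs named as lower over regions followed genes of varied function. The TAPE past Adnp2, a homeobox zinc finger protein, fell by 0.73 on the log2 scale (limma adjusted p = 0.00394), and it also lies 5148 bp past Pard6g. That past Desi1, an enzyme that removes SUMO, fell by 0.57 (limma adjusted p = 0.00454). That past Itga11, a collagen-binding integrin subunit, fell by 0.60 (limma adjusted p = 0.00542), and it also lies 7809 bp past Fem1b. That past Pnma2, a neuronal antigen related to viral Gag proteins, fell by 0.76 (limma adjusted p = 0.00602), and it was the one of this set whose end gene was called lower too (-1.11 SD, exact permutation adjusted p = 0.00978). The TAPE past Crmp1, which acts in semaphorin signalling, fell by 0.85 (limma adjusted p = 0.0075). TAPEs past Ptprn2, a phosphatase-like protein of dense core vesicles, Stx6, a SNARE of the trans-Golgi network, and Mxra7 fell by 0.63, 0.83 and 0.68 (limma adjusted p = 0.00916, 0.0129 and 0.0236). Vehicle and KCl libraries overlapped in cortex past Crmp1, Ptprn2 and Stx6, in hippocampus past Adnp2, Itga11, Ptprn2 and Mxra7, and in striatum past Adnp2, Pnma2, Stx6 and Mxra7, while those past Desi1 did not overlap in any region. The Mxra7 call was lost without 1 of the 19 libraries. After centring, the calls of Ptprn2 and Mxra7 were lost (limma adjusted p = 0.0582 and 0.0925). Of the end genes not called, Adnp2 and Ptprn2 were near the threshold (-0.929 and -0.652 SD, exact permutation adjusted p = 0.0501 and 0.0585). Mxra7 had -0.54 SD, and Desi1, Itga11, Crmp1 and Stx6 lay between -0.0822 and 0.0914 SD.

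Read-through depends on its gene, so TAPE changes were set beside those of the end genes. Gene values were recovered as standardised profiles from the deposited correlations, which gives a direction but no fold. Of 1195 end genes with a profile, 85 were called higher after KCl (7.11%, beside 6.26% of all genes) and 193 lower (16.2%, beside 15.5%), so end genes were called about as often as all genes. Past genes that were higher, the 28 tested TAPEs had a median log2 change of 0.14, with 16 above 0 and 12 below, and 1 was called higher and 1 lower. Past genes that were lower, the 68 tested TAPEs had a median of -0.18, with 18 above 0 and 50 below, and 1 was called higher and 4 lower. Past genes that were not called, the 189 tested TAPEs had a median of -0.22, with 44 above 0 and 145 below, and 0 were called higher and 13 lower by limma. Over all tested TAPEs, 1.66% were called higher and 5.19% lower. The medians past called-lower genes and past genes that were not called were thus close.

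The same split was made at other positions. From 10 to 50 kb past a gene end, the median log2 change was -0.06 for 42 tested TAPEs past higher genes, -0.11 for 90 past lower genes and -0.13 for 261 past genes not called. From 10 to 50 kb before a gene start, it was 0.01 for 44 TAPEs, -0.16 for 58 and -0.16 for 257. Near higher genes, limma called 4 higher and 1 lower from 10 to 50 kb past the end, and 5 and 1 before the start. Near lower genes it called 1 higher and 4 lower past the end, and 0 and 3 before the start. Near genes not called, these were 3 and 16 past the end, and 2 and 12 before the start. TAPEs nearest to genes that were higher had the highest median at all 3 positions. Within 5 kb of the end of higher genes the median was -0.06 over 12 tested TAPEs, and from 5 to 10 kb it was 0.18 over 16. TAPE and gene values come from the same libraries, and the differences between these medians were not tested.

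**Figure D4:**
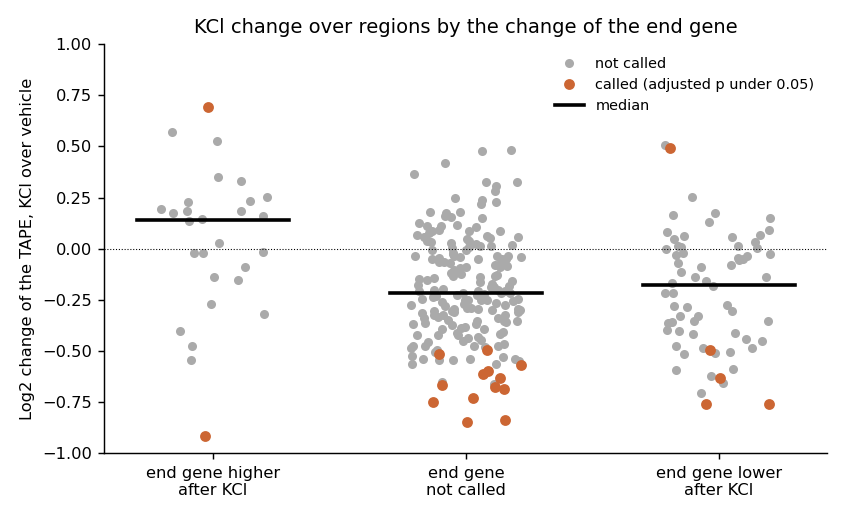
Log2 change over regions, KCl over vehicle, of the tested TAPEs past a gene end (each point 1 TAPE), grouped by the change of the end gene. Bars are medians (0.14, -0.22 and -0.18 from left to right) and coloured points are TAPEs with a limma adjusted p under 0.05.

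Activity-induced genes were looked at as a list. It comprised transcription factors and effectors switched on by neuronal firing, 80 genes in all, of which 74 had a profile, and 66 of these were called higher after KCl and 1 lower. Among the 77 listed genes paired with any TAPE, 4 were end genes (5.19%, beside 7.06% of all 17715 genes), with 1 TAPE each, of which 1 was tested. That one lay 3446 bp past Dusp4, a phosphatase that switches off MAP kinases (chr16:61073371-61076087, 611 reads). It also lies 7537 bp past Tnks, and its r was 0.212 with Tnks and -0.332 with Dusp4. Its means were 0.205 ± 0.0777 and 0.191 ± 0.0183 CPKM in cortex (vehicle and KCl, SD, n = 3 each), 0.203 ± 0.0648 and 0.152 ± 0.0424 in hippocampus (n = 3 each) and 0.267 ± 0.0263 (n = 4) and 0.186 ± 0.0448 (n = 3) in striatum. Its log2 change over regions was -0.27 (SE 0.15, limma adjusted p = 0.28), while Dusp4 was called higher (1.18 SD, exact permutation adjusted p = 0.0018).

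The other 3 TAPEs of that list were too low to test, and their end genes were called higher (exact permutation adjusted p = 0.0018 each). The one past Nfil3, a transcription repressor, held 29 reads and had 0.0549, 0.0447 and 0.0557 CPKM in the striatum KCl libraries, and 0, 0.0195, 0.0167 and 0 in striatum vehicle. It stayed between 0 and 0.0176 in cortex and hippocampus. The one past Errfi1, a feedback inhibitor of the EGF receptor, held 105 reads, and its striatum values ran from 0.0361 to 0.0885 CPKM with vehicle and from 0 to 0.137 with KCl. The one past Dusp5, another MAP kinase phosphatase, held 5 reads.

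Stress conditions are those in which read-through is best known. Of 18 stress and heat shock genes, 15 had a profile, and 7 were called higher after KCl and 1 lower, but none had a TAPE past its end that met the rule. Of 24 factors of transcription end and elongation, 21 had a profile, with 4 called higher and 6 lower, and none had such a TAPE. Of the astrocyte (8), oligodendrocyte lineage (9) and microglia (6) genes with a profile, 0 were called in either direction by the exact permutation test. Their median KCl effects were -0.016, -0.00121 and 0.0464 SD.

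The deposited Pearson r of each TAPE with its end gene, over all 19 libraries, was shifted upward. The median was 0.133 (quartiles -0.111 and 0.353) over 1402 TAPEs, and 173 (12.3%) were above 0.5 while 25 (1.78%) were below -0.5. For the other genes within 1 Mb of the same TAPEs the median was 0.00235, with 5.24% above 0.5 and 2.8% below -0.5. In the 289 tested TAPEs, where counting noise is smaller, the median with the end gene was 0.283 and 23.2% were above 0.5, against 0.0214 and 8.79% for the other genes. Tested TAPEs 10 to 20 kb before a gene start had a median r of 0.173 with that gene and 23.4% above 0.5. At 20 to 50 kb before, these were 0.202 and 21.7%, and at 50 to 100 kb 0.137 and 23.7%. The share above 0.5 was thus not particular to gene ends. These values share libraries and genes, and they are given as a description.

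End genes are on the whole nearer than other genes, so genes at like distances were also compared. Among tested TAPEs, end genes with a start within 50 kb had a median r of 0.248 (n = 177) and other genes with a start within 50 kb one of 0.0986 (n = 246). In the 115 tested TAPEs where another gene had the nearest start, the median r was 0.306 with the end gene and 0.121 with that nearer-start gene. The end gene was the best correlated of all paired genes in 173 of the 1402 TAPEs (12.3%), where taking each paired gene equally often would give 7.62%. Among tested TAPEs this was 45 of 289 (15.6%, beside 7.43%).

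Within 10 kb of the end the median correlation did not fall with distance as the level did, while farther out both fell. The median r was 0.11 up to 2.5 kb past the end, 0.143 from 2.5 to 5 kb, 0.126 from 5 to 7.5 kb and 0.13 from 7.5 to 10 kb. In tested TAPEs it was 0.208, 0.222, 0.288 and 0.309 in these 4 bins. Over all TAPEs it was 0.0848 at 10 to 20 kb, 0.0546 at 20 to 50 kb and 0.0461 at 50 to 100 kb. Before a gene start it was 0.0787, 0.0528 and 0.05 at these 3 distances.

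The median correlation was near 0 within groups of libraries. When each library was expressed as its deviation from the mean of its group, the median r with the end gene was 0.00838 over the 1345 TAPEs whose end gene had a profile, and 0.0248 over 285 tested TAPEs. Of these 285, 14 were above 0.5 and 14 below -0.5. Of the 67 tested TAPEs with a deposited r above 0.5, 53 were region-dependent in the test of regions, beside 114 of all 289 tested past gene ends. The authors' correlations within single regions had medians of 0.0203 in cortex, 0.0774 in hippocampus and 0.0304 in striatum over all TAPEs past gene ends, and of 0.07, 0.158 and 0.107 over those tested. Of 66 tested TAPEs with r above 0.5 and a profile of the end gene, 50 stayed above 0.5 without each single library.

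**Figure D5:**
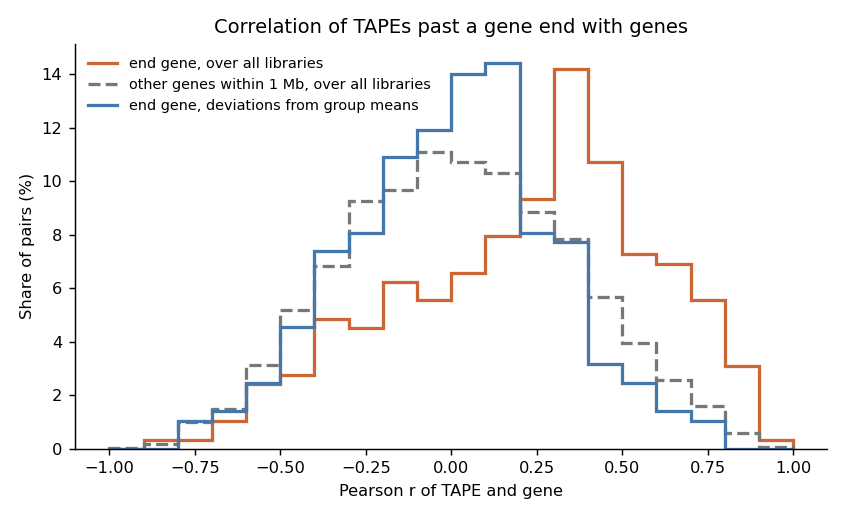
Share of pairs by Pearson r, in steps of 0.1, for the tested TAPEs past a gene end: with the end gene over all 19 libraries, with other genes within 1 Mb, and with the end gene after subtracting group means. The first has a median of 0.283, the second 0.0214 and the third 0.0248.

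The highest r was with Pappa1 (0.949), whose TAPE lies 2441 bp past the end (chr5:81152652-81154110, 842 reads). Its CPKM was 0.162 to 0.331 in the 6 cortex libraries (mean 0.266 ± 0.0623), 0.869 ± 0.0708 in hippocampus (SD, n = 6) and 0.459 ± 0.081 in striatum (n = 7). The hippocampus libraries, from 0.786 to 0.972, did not overlap with the others. Within regions r was -0.5, 0.245 and -0.0305 in cortex, hippocampus and striatum.

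The TAPE past Slc9a2, a sodium/hydrogen exchanger (chr9:47493065-47494958), had an r of 0.874. Its CPKM was 0.0778 ± 0.0534 in cortex and 0.217 ± 0.0725 in hippocampus (SD, n = 6 each), and it was 0 in all 7 striatum libraries. It also lies 2973 bp past Mfsd9, and the best-correlated gene was Slc9a4 (0.885). The TAPE 6407 bp past Nr2f1, a nuclear receptor that patterns the cortex (chr2:5561912-5565145), had an r of 0.864. It averaged 0.257 ± 0.0628 CPKM in hippocampus, 0.188 ± 0.0224 in cortex and 0.0261 ± 0.0094 in striatum (SD, n = 6, 6 and 7). After group means were removed, r was 0.548 past Grasp, 0.322 past Slc9a2, 0.232 past Nr2f1 and 0.132 past Tmem44. It was not computed for Pappa1, which had no profile.

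Some TAPEs ran against their end gene. The lowest r was -0.867, at the TAPE 3463 bp past Afap1, an actin filament binding protein (chr14:79915257-79917251), which also lies 3921 bp past Sorcs2. Its CPKM was 0.444 ± 0.0519 in hippocampus, 0.157 ± 0.035 in cortex and 0.142 ± 0.103 in striatum (SD, n = 6, 6 and 7). The TAPE past Eml4, a microtubule-associated protein, had an r of -0.72, and that past Rab7a, a GTPase of late endosomes, one of -0.659. For Rab7a the negative r remained within groups (-0.733), with -0.927 among cortex, -0.92 among hippocampus and -0.419 among striatum libraries.

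An r above 0.5 in each of the 3 regions was seen at 5 of the tested TAPEs, which are named after their values were seen. They lay past Snd1, Eif2s3, Ppp2r5c, Sncb and Stard6. The TAPE 8432 bp past Snd1 had 0.967, 0.608 and 0.809 in cortex, hippocampus and striatum and 0.803 over all libraries. Past Eif2s3, a translation initiation factor subunit, the values were 0.761, 0.823 and 0.692 within regions but -0.528 over all libraries. Past Sncb, beta-synuclein, they were 0.633, 0.544 and 0.556 within regions and -0.274 over all. In these 2 TAPEs r over all libraries thus had the opposite sign to r within each region.

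More TAPEs differed between regions than after KCl. In a limma fit of all 19 libraries by region, of the 289 tested TAPEs past gene ends, 114 differed between regions (39.4%), beside 48.8% of all tested TAPEs. The testing level is a mean over all libraries, so a TAPE high in 1 region alone can reach it through that region. This favours region-dependent TAPEs among those tested, past gene ends and elsewhere. The highest mean log2 value was in striatum for 62 of these, in cortex for 27 and in hippocampus for 25. Over all 912 region-dependent TAPEs these shares were 47.8%, 25.3% and 26.9%. Among the 112 region-dependent TAPEs whose end gene had a profile, 66 (58.9%) had their highest region in common with the end gene, comprising 39 of 61 for striatum, 16 of 27 for cortex and 11 of 24 for hippocampus. Of the 2025 pairs of the same TAPEs with their other paired genes, 38.1% had the highest region in common, and these pairs share TAPEs and genes. Other cells moved with region too. The 8 astrocyte genes with a profile had a median level of -1.24 to -1.17 SD in the striatum libraries and 0.617 to 0.956 SD in the others, and the 9 oligodendrocyte lineage genes -1.07 to -0.854 SD and -0.505 to 1.18 SD. Their part in the region differences was not tested.

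In striatum, the largest gap to the next region was at the TAPE past Mxra7, with 0.334 ± 0.177 CPKM (SD, n = 7) against 0.0287 ± 0.0204 in hippocampus and 0.0243 ± 0.0215 in cortex (n = 6 each; gap 2.20 on the log2 scale, limma adjusted p = 8.39e-09). The TAPE 8565 bp past Stx6 followed, with 0.535 ± 0.087 CPKM in striatum and 0.0636 ± 0.0415 and 0.0813 ± 0.0299 in cortex and hippocampus (gap 2.17, limma adjusted p = 1.60e-10). Stx6 itself did not share this order, with an r of -0.643. The TAPE past Adamts6, a secreted metalloproteinase, had 0.145 ± 0.0619 CPKM in striatum, 0.0129 ± 0.0178 in cortex and 0.00458 ± 0.00775 in hippocampus (gap 1.62, limma adjusted p = 4.52e-08), and an r of 0.835 with its gene. The TAPEs past Mxra7 and Adamts6 averaged under 0.05 CPKM in the other regions, so they reached the testing level through striatum alone.

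In cortex, the TAPE 3509 bp past Tmem44 had 0.467 ± 0.123 CPKM (SD, n = 6), against 0.117 ± 0.058 in hippocampus and 0.166 ± 0.0537 in striatum (gap 1.28, limma adjusted p = 1.02e-06), and an r of 0.867 with its gene. TAPEs past Sh3bp4, a regulator of endocytosis, and 9235 bp past Tmem178a had gaps of 1.04 and 0.58 (limma adjusted p = 0.000836 and 0.00452). In hippocampus, the TAPE past LOC689713 had 0.163 ± 0.0547 CPKM, with 0.0153 ± 0.0194 in cortex and 0.00266 ± 0.00703 in striatum (gap 1.71, limma adjusted p = 9.59e-09), but an r of -0.125 with its gene. This TAPE reached the testing level through hippocampus alone. The TAPE past Grap2, an adaptor protein, had 0.747 ± 0.193 CPKM in hippocampus, 0.28 ± 0.0935 in cortex and 0.0412 ± 0.0452 in striatum (gap 1.28, limma adjusted p = 4.04e-11), and an r of 0.733. The TAPE past Afap1 had a gap of 1.27 (limma adjusted p = 5.19e-05). Each of these 9 calls held without any single library.

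The test of whether the KCl change differed by region passed for 0 of the 289 TAPEs past gene ends in limma, beside 0.0535% of all tested TAPEs. Before adjustment, 27 had a p under 0.05 (9.34%, beside 8.03% of the other tested TAPEs). With limma voom 1 passed, and the share over all tested TAPEs in that fit is not given.

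Where 2 tested TAPEs followed the same gene end, they could be compared with each other. There were 24 such pairs, of which 4 overlapped and so shared reads. In the 20 pairs that did not overlap, the farther TAPE had the higher mean CPKM in 3. The median r between the TAPEs of a pair was 0.38, with 7 above 0.5, and 0.111 after group means were removed. Past Stx6 the TAPE at 4586 bp fell after KCl (log2 change -0.83), while the one at 8565 bp had a log2 change of 0.06. Their mean CPKM was 0.124 and 0.243. Past Desi1 the TAPE at 4199 bp changed by -0.57 and that at 7674 bp by 0.09, and their r was -0.53. Past Nr2f1 the TAPEs at 6407 and 9239 bp had an r of 0.832, and 0.0901 after group means were removed.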

How the data were processed

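The authors trimmed reads with Trim Galore 0.4.5, aligned them to the Rn6 rat assembly, and processed alignments with SAMtools 1.9, per the labels and the study's methods. Reads over TAPEs were counted in SeqMonk, both strands together and duplicates included. Values of TAPEs were deposited as linear RPKM, called CPKM in the study. Correlations of TAPEs with genes were deposited as a score from -1 to 1. The authors' gene values were not used here. Library depths were not read from the labels but recovered from the steps between small CPKM values. They came to 46411271 to 72521193 reads, of which 5180 to 8940 lay in TAPEs past gene ends. These depths are above the reads per sample that the study states, and the reason was not tested. Multiplying by length and this recovered depth gave whole reads, within 0.02, for 100% of values in each library.

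The distance from a gene end was computed from the TAPE centre and the end farther from the start site. TAPEs averaging 0.05 CPKM or more were tested with limma 3.58.1 in R 4.3.3 (two-sided, mean-variance trend) on log2(CPKM + 0.05), on the whole table. Sums were tested by exact two-sided permutation within regions (14000 arrangements). Gene profiles were solved from deposited correlations for 16115 of 17715 gene symbols (91%), returning them within 8.66e-15, and tested by the same permutations. A planned count test was replaced by limma voom on recovered reads as an alternative, because values are normalized. Scripts were tested on simulated data. Python 3.11.15, numpy 2.4.6, scipy 1.17.1 and pandas 2.3.3 were used, with matplotlib 3.10.9 for figures.

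TAPEs were named if called in a KCl fit (at most 10 per fit), among the 5 highest in CPKM, the 5 highest or 3 lowest in r among those tested, the 3 most region-dependent per region, past a gene of the activity or stress lists, or next to a distance limit. The members and lists were chosen with earlier results of these data known. The study's methods count striatum libraries per treatment differently from the titles, which were used. Sequences were not used here, since the reference at hand is of another assembly.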

Additional observations from a re-analysis of the deposited data

How the results depend on the processing

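The fall of summed CPKM after KCl kept its direction and an exact permutation p under 0.05 in every alternative run, with log2 ratios of -0.27 to -0.22 when each library was left out. As a share of reads in all TAPEs the log2 ratio was -0.07. Relative to other far TAPEs it ran from -0.11 to -0.09 without each library. The deviations of same-numbered libraries were hardly correlated (r from -0.0418 to 0.0142). With 3 libraries per group and low counts, this cannot show whether numbers pair them, and the main tests treat libraries as unpaired. With a replicate block, which uses the cortex and hippocampus pairs alone, the summed ratio was -0.21 and the ratio to other far TAPEs -0.07 (exact permutation p = 0.0625). Calls over regions under the replicate block were 5 instead of 20, and that fit both adds the block and gains nothing from striatum. Under it, cortex and hippocampus gave 1 and 0. Shares over all tested TAPEs under the block are not given, so these counts do not compare TAPEs past gene ends with others.

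Calls over regions were 4 with no filter on low TAPEs (1402 tested), 12 after centring, 12 within 5 kb of the end (138 tested), and 12 to 22 without each library. Cortex gave 0 with no filter, 2 in a single fit of all groups and 0 within 5 kb. Hippocampus gave 4 in the single fit. Striatum gave 0 with no filter, 2 with a pseudocount of 0.2, 2 after centring, 4 by limma voom, 3 in the single fit, 0 within 5 kb, and 0 to 1 without each library. The difference between regions gave 1 with a pseudocount of 0.2, 1 by limma voom, and 0 to 1 without each library. Region dependence gave 55 within 5 kb. Shares over all tested TAPEs under these settings are not given, so the counts do not compare TAPEs past gene ends with others. The median r with the end gene was 0.00838 within groups and 0.283 in tested TAPEs. The cause was not tested unless fewer TAPEs or samples are named. Alternative fits were run for named TAPEs called in a KCl fit or region-dependent, and for all TAPEs past gene ends called over regions. Of 751 such fits, 597 kept their side of the threshold and 154 lost it. None of the KCl changes changed sign, while tests of region dependence have no sign. The median TAPE held 30 reads, and the floor of 0.05 CPKM kept 289 of 1402.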
